A study of Mus musculus with 12 samples.

Results

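The 7 genes described here, A4galt, Avil, Acpp, Ppa1, Plcl1, Gng10 and 2610035D17Rik, are 7 of the 32285 genes counted in single cells of mouse paw epidermis. They were picked by symbol because their transcript levels differed between diets in the Langerhans cells (LCs) of female mice. The values of that one comparison therefore describe the choice, and the p-values and calls printed for it support nothing. The choice did not use where else in the epidermis these genes are transcribed or how they differ among LC states. By its rule it also did not use whether the diet moves them in other cell classes and in males. Earlier results of these data were known when the choice was made. The other female classes come from the same mice as the choice, so their diet values are not independent of it.

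All mice were wild-type C57BL/6J, started at 6–8 weeks of age and fed for 10 weeks with 1 of 2 chows, the regular diet (RD, with 11% fat) or EnvigoTD88137, a high-fat diet (HFD) with 42% fat. They were 16–18 weeks old when the glabrous hind paw epidermis was dissociated for 10x Genomics 3' single-cell RNA sequencing. There were 3 mice for each sex and diet, 12 libraries in all, with 1 mouse in each library. Male libraries held 134449247 to 194673581 unique molecular identifiers (UMIs, 1 per captured transcript) and female libraries 135683082 to 173907390, of which 62147 male and 64228 female cells were kept.

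Langerhans cells are the resident antigen-presenting cells of the epidermis. They lie among keratinocytes, which divide in the basal layer and move outward through suprabasal to terminally differentiated stages, and beside epidermal T cells. The 7 genes belong to separate pathways. A4galt adds the terminal galactose that makes the glycolipid globotriaosylceramide. Acpp, the prostatic acid phosphatase, has a membrane form that removes phosphate from extracellular nucleotides and is known from pain-sensing neurons, and Ppa1 is the cytosolic enzyme that splits pyrophosphate. Plcl1 resembles phospholipase C but lacks its catalytic activity, Gng10 is a gamma subunit of heterotrimeric G proteins, and Avil (advillin) binds actin and belongs to the gelsolin and villin family. 2610035D17Rik is annotated as a long intergenic noncoding RNA.

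Gene positions are from GENCODE M21 on GRCm38, an annotation that holds 32235 of the 32285 gene IDs in the count files. A4galt lies at chr15:83226722-83251774 on the minus strand, Acpp at chr9:104288251-104337748 (minus) and Ppa1 at chr10:61648552-61674168 (plus). Plcl1 lies at chr1:55405921-55754285 (plus), Gng10 at chr4:59035088-59041903 (plus) and Avil at chr10:127000709-127020994 (plus). 2610035D17Rik lies at chr11:113043895-113201838 on the minus strand, between Sox9 and Slc39a11. Avil overlaps Tsfm on the other strand, Gng10 overlaps Gm20503 on its own strand, and Plcl1 overlaps Gm38056 and Gm37382 on its own strand and Gm6644 on the other. Of these genes Tsfm alone is in the count files, and counts from the shared stretches are less certain.

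The promoters of 3 members are shown, 1 highest in LC-like cells and terminally differentiated keratinocytes, 1 highest in terminally differentiated keratinocytes and 1 lower on HFD in several classes of female cells. Each is the 250 bases before the RefSeq start on the gene's own strand (GRCm38.p6), written 5′ to 3′, at chr15:83251730-83251979, chr9:104337723-104337972 and chr11:113201839-113202088, all minus. Capitals mark every match, on either strand, to 1 of 4 searched motifs, which are GAGGAAG (bound by PU.1), TGANTCA (AP-1), CACGTG (E-box) and GGGCGG (GC box).
A4galt: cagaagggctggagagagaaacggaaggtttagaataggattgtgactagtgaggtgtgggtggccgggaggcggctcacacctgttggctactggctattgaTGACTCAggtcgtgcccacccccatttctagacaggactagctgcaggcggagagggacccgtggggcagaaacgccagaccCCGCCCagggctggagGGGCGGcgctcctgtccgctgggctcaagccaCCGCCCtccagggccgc
Acpp: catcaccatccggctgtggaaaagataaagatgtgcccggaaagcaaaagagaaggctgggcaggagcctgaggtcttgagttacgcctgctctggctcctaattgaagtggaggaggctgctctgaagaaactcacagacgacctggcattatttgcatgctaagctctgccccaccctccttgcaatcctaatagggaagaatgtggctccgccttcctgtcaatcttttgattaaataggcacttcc
2610035D17Rik: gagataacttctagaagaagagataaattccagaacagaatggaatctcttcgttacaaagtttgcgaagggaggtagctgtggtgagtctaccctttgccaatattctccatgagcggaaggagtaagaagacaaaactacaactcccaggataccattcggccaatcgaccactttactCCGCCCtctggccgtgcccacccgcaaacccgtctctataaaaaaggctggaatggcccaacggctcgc

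Among the 7 promoters, GGGCGG was found in 5 (A4galt, Ppa1, Plcl1, Gng10 and 2610035D17Rik), against 32.7% of the 32851 RefSeq promoter windows of the same length. TGANTCA was found in A4galt alone (6.75% of all windows) and CACGTG in Ppa1 alone (6.02%). GAGGAAG was in 0 of the 7 and in 10.6% of all windows. The 3 printed promoters had a GC content of 64.0%, 50.4% and 48.8% in the order shown, against a median of 52.4% over all windows.

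The cell classes were rebuilt by clustering each sex on its own and were named from marker genes, hence "LC-like" and "T cell-like". In LC-like cells, 94.3% of female and 90.9% of male cells thinned to 2000 UMIs held a UMI of Cd207, the gene for langerin, which defines LCs. Among the thinned T cell-like cells none held a Cd207 UMI, and the share in a keratinocyte class of either sex was at most 0.576%. There were 1374 male LC-like cells (133 to 446 per mouse) and 2175 female ones (283 to 474), but only 192 male and 286 female T cell-like cells. The LC-like sums held 943768 to 2253335 UMIs in a male mouse and 2261765 to 4029626 in a female mouse, and the T cell-like sums 39380 to 66950 and 93367 to 297704. One female cluster of 14352 cells, led by Zfp750 and Thbd, and one male cluster of 1621 cells stayed unnamed.

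Transcript levels are given as UMIs of the gene per 1000000 UMIs of the class in 1 mouse (CPM). In such sums, fewer cells carrying a transcript and less of it in each cell cannot be told apart. Male files were made with Cell Ranger 6.1.0 and female files with Cell Ranger 7.2.0, so sex and software release cannot be told apart, and diets were compared only within a sex. Pairs of libraries shared 12 to 59 cell barcodes, at most 0.583% of the smaller library.

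In the LC-like cells of females, A4galt stood at 38.0, 32.7 and 30.9 CPM in the 3 RD mice and at 12.2, 12.4 and 13.3 CPM in the 3 HFD mice. Acpp stood at 112, 106 and 110 CPM on RD and at 61.5, 66.5 and 54.8 CPM on HFD. Ppa1 stood at 192, 198 and 186 CPM on RD and at 112, 116 and 92.0 CPM on HFD. In each of these enzymes every HFD mouse lay below every RD mouse.

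The signalling members went in both directions. Plcl1 had 36.2, 40.3 and 36.0 CPM on RD and 68.7, 67.8 and 74.3 CPM on HFD. It was the only one of the 7 that was higher on HFD. Gng10 had 55.5, 49.6 and 52.6 CPM on RD and 32.3, 30.7 and 30.9 CPM on HFD. Avil had 17.9, 20.2 and 16.1 CPM on RD and 5.96, 6.68 and 7.52 CPM on HFD, and was again lower in every HFD mouse. 2610035D17Rik had 186, 207 and 170 CPM on RD and 95.0, 115 and 103 CPM on HFD, the same separation.

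**Figure D1:**
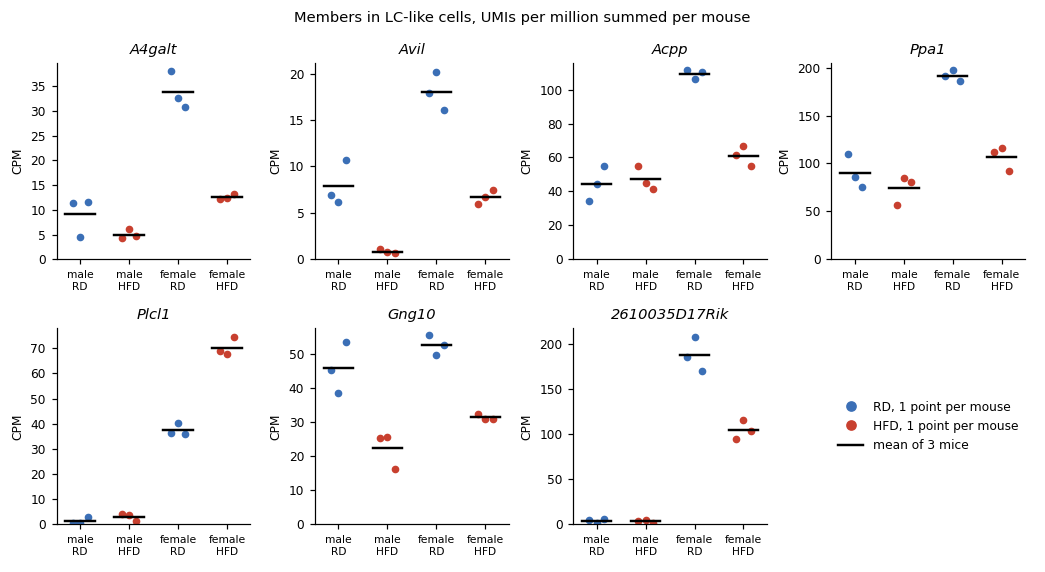
Level of each of the 7 genes in LC-like cells, in CPM, with 1 point per mouse and a bar at the group mean, for RD and HFD mice of each sex. In females the diets do not overlap for any of the 7, with Plcl1 alone higher on HFD (68.7, 67.8 and 74.3 CPM against 36.2, 40.3 and 36.0 CPM). In males they do not overlap for Avil and Gng10 only.

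As log2 fold changes, HFD over RD, these came to −1.44 ± 0.16 for A4galt, −1.45 ± 0.21 for Avil, −0.85 ± 0.11 for Acpp and −0.85 ± 0.11 for Ppa1 (standard error, 3 mice per diet). They were 0.89 ± 0.11 for Plcl1, −0.76 ± 0.12 for Gng10 and −0.85 ± 0.11 for 2610035D17Rik. By edgeR's quasi-likelihood test with Benjamini-Hochberg adjustment, 6 of the 7 were called, and 0.056% of the 10714 genes tested were called. This contrast was used in the choice, which also took Gng10 from outside the threshold. Just inside the threshold of 0.05 lay 2610035D17Rik and Avil, with adjusted p-values of 0.0239 and 0.0426, and just outside lay Gng10 (0.0636) and Spns2 (0.0723). The diet ranges did not overlap for 16.0% of all genes tested, and for all 7 members. Both member counts follow from the choice, and nothing is read from them.

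The choice rested on few mice in each group. Leaving out 1 mouse at a time left 0 to 5 of the members called, with 0 without RD 1, RD 2 or HFD 3, 1 without RD 3, 3 without HFD 1 and 5 without HFD 2, where these fits called 0 to 11 of all genes. The fold changes stayed on their side of 0 in each of these fits, between −1.50 and −1.35 for A4galt and between 0.86 and 0.94 for Plcl1. The kept sides follow from the choice, as the diets overlapped for none of the members in these mice, and they support nothing.

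Male LC-like cells come from the first set of mice that the rule of the choice did not use. Gng10 was at 45.2, 38.6 and 53.3 CPM in the RD males and at 25.4, 25.6 and 16.1 CPM in the HFD males. All 3 HFD males lay below all 3 RD males. The log2 fold change was −1.06 ± 0.23 with an unadjusted p of 4.88e-04, and it did not pass over all 8346 genes tested (adjusted p = 0.502, edgeR). With the LC-like subclusters that carried keratinocyte transcripts or were proliferating left out, the value was −1.50 ± 0.27 with an adjusted p of 0.0215, in a fit that called 11 of 5636 genes. It was called in 2 of 14 alternatives, this one and the fit without a filter on low counts, and with 1 mouse left out its adjusted p was 0.370 to 0.996 (edgeR).

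Avil was at 6.95, 6.21 and 10.7 CPM in the RD males, from 14, 14 and 11 UMIs, and at 1.06, 0.753 and 0.671 CPM in the HFD males, from 1 UMI in each. The diets did not overlap, but its counts were too low to pass the filter on low counts. It was therefore not tested with the other genes, but it was called in the edgeR fit without that filter, which called 80 of 16906 genes. A4galt was at 11.4, 4.44 and 11.6 CPM on RD and at 4.24, 6.03 and 4.69 CPM on HFD, and the diets overlapped. Plcl1 had between 1 and 5 UMIs in each male library, too few to place it on either diet.

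Acpp was at 34.3, 44.4 and 55.2 CPM in the LC-like cells of RD males and at 55.1, 45.2 and 41.6 CPM in those of HFD males. Its log2 fold change was 0.07 ± 0.20 (adjusted p = 0.968, edgeR), with overlapping diets. Ppa1 was at 110, 85.7 and 75.6 CPM on RD and at 56.2, 84.4 and 81.1 CPM on HFD, a log2 fold change of −0.32 ± 0.20 (adjusted p = 0.836, edgeR). The noncoding 2610035D17Rik was at 4.97, 1.78 and 5.82 CPM on RD and at 4.24, 4.52 and 1.34 CPM on HFD, with overlapping diets. Of the 3 members that could be tested in male LC-like cells, 0 were called, against 0.0% of all genes, and Gng10 alone had an unadjusted p below 0.05 (520 of all 8346 genes), while DESeq2 called 0 of these members and 5 of all genes. The diets did not overlap for 1 of these 3 members, against 11.9% of all genes.

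Markers of other cell types were also counted in the LC-like sums. The 9 keratinocyte markers summed to 7364–12131 CPM in RD females and 5656–11375 CPM in HFD females, and to 21405–29206 CPM and 17350–23092 CPM in RD and HFD males, all 9 being detected. The 4 macrophage markers summed to 151–214 CPM in RD females and 202–246 CPM in HFD females. The macrophage marker C1qa was among the leading genes of a female LC-like subcluster of 566 cells, so this sum does not measure macrophages alone. The 4 dermal dendritic cell markers, with Xcr1 at 0 in RD females, summed to 4.44–11.5 CPM and 16.0–18.9 CPM in RD and HFD females. The part of other cell types in the members' values was not tested. Both mast cell markers were at 0 in each of the 12 mice.

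**Figure D2:**
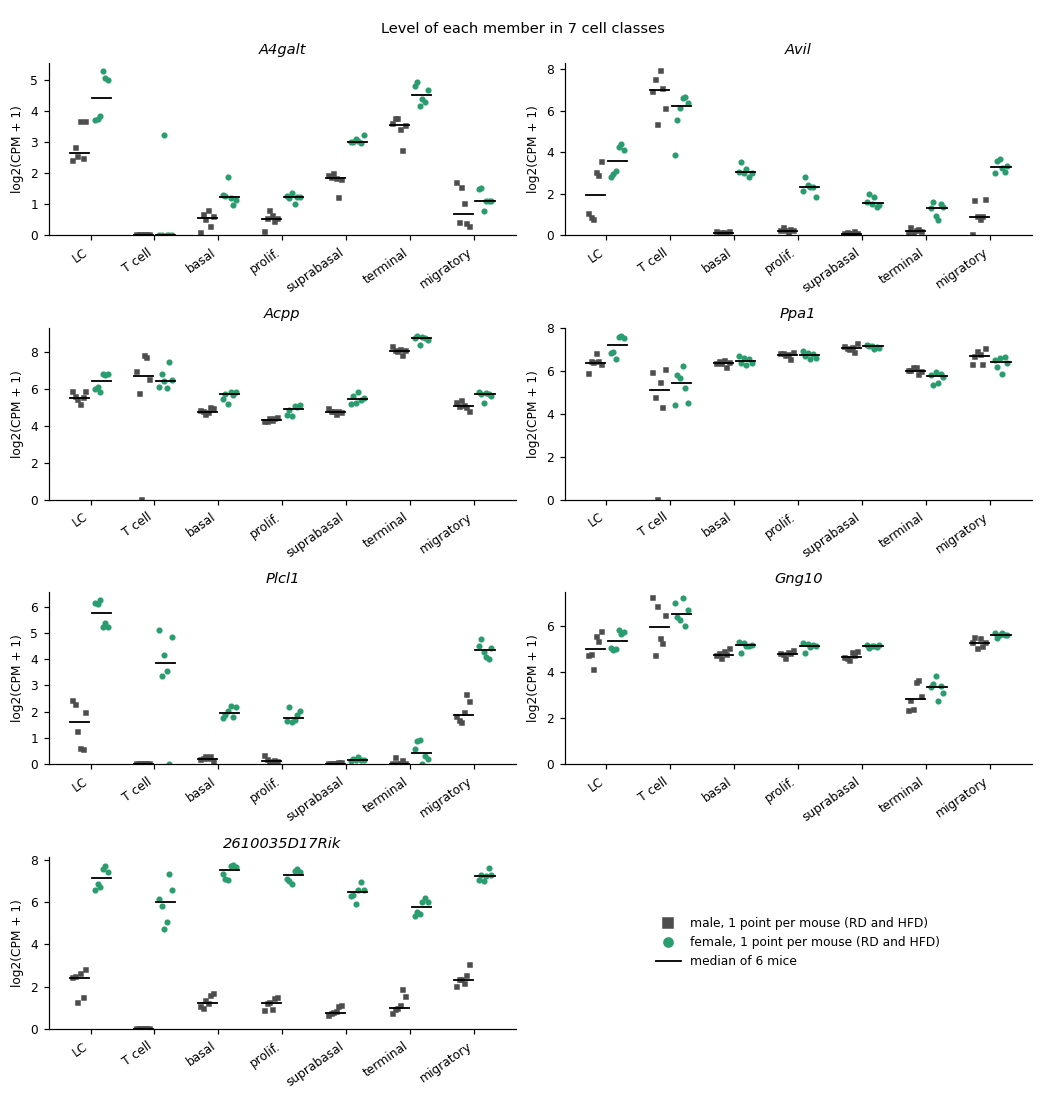
Level of each of the 7 genes in 7 cell classes, as log2(CPM + 1), with 1 point per mouse (both diets) for males and females and a line at the median of 6 mice. A4galt stands highest in LC-like cells and terminally differentiated keratinocytes, Acpp in terminally differentiated keratinocytes (means of 416 CPM in females and 264 CPM in males) and Plcl1 in female LC-like cells (mean 53.9 CPM) with migratory keratinocytes next.

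All 7 genes were counted outside LC-like cells as well. The order of classes below is a description, with levels as the mean over 6 mice and the range in brackets.

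A4galt was at 23.2 CPM (12.2–38.0) in female LC-like cells and at 22.8 CPM (17.1–29.4) in female terminally differentiated keratinocytes, which overlapped. Female suprabasal keratinocytes followed at 7.33 CPM and basal keratinocytes at 1.50 CPM, each below the class before it without overlap. In males the order of the first classes was terminally differentiated at 10.2 CPM (5.51–12.3) and LC-like at 7.07 CPM (4.24–11.6), which overlapped, and then suprabasal at 2.41 CPM (3.86 CPM with at most 3% mitochondrial UMIs). The enzyme's transcript was thus shared by LC-like cells and the outermost keratinocytes in both sexes. In T cell-like cells it was 1 UMI in females and 0 of 304974 UMIs in males, which allows up to 9.84 CPM.

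Acpp was highest in terminally differentiated keratinocytes in both sexes, at 416 CPM (331–465) in females and 264 CPM (219–309) in males. T cell-like cells were next, at 97.5 CPM and 113 CPM, and overlapped LC-like cells at 85.2 CPM and 46.0 CPM. Of female terminally differentiated cells thinned to 2000 UMIs, 48.2% held an Acpp UMI, against 13.8% of LC-like cells. Unthinned, the shares were 82.7% and 39.1%.

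Ppa1 was spread over all classes. In males it was highest in suprabasal keratinocytes at 132 CPM (115–149), with LC-like cells at 82.2 CPM. In females LC-like cells at 149 CPM (92.0–198) and suprabasal keratinocytes at 139 CPM (129–145) overlapped. Both stood above proliferating keratinocytes in the order of means, at 106 CPM.

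Plcl1 was concentrated in LC-like cells in females. They had 53.9 CPM (36.0–74.3), above migratory keratinocytes at 19.6 CPM (14.9–26.5) without overlap, and suprabasal keratinocytes were at 0.256% of the LC-like level in the summed counts. In males Plcl1 was sparse throughout, at 3.15 CPM in migratory keratinocytes and 2.20 CPM in LC-like cells, which overlapped.

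Gng10 was highest in T cell-like cells, at 101 CPM (63.0–150) in females and 76.2 CPM (25.4–149) in males. The male range overlapped that of migratory keratinocytes. Migratory keratinocytes followed at 48.7 CPM and 37.6 CPM and overlapped LC-like cells at 41.9 CPM and 34.0 CPM. The lowest class was terminally differentiated keratinocytes, at 9.28 CPM and 7.06 CPM (4.26 CPM in females with doublet-scored cells left out). Its order was the same in both sexes for these 4 classes.

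Avil was likewise highest in T cell-like cells, at 67.4 CPM (13.4–99.0) in females and 128 CPM (38.4–236) in males, and was at 12.4 CPM and 4.39 CPM in LC-like cells. In males the T cell-like range lay above the LC-like range, while in females the ranges overlapped. Avil was at 7.63 CPM in female basal keratinocytes but at 0.0810 CPM in male ones.

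2610035D17Rik was highest in female basal keratinocytes at 175 CPM, with proliferating and migratory keratinocytes both at 152 CPM and LC-like cells at 146 CPM, ranges that overlapped. Suprabasal keratinocytes had 88.4 CPM and terminally differentiated ones 54.0 CPM. In males the highest class, migratory keratinocytes, was at 4.32 CPM, and LC-like cells were at 3.78 CPM, with overlapping ranges. With doublet-scored cells left out this order turned, at 4.92 CPM in migratory keratinocytes and 5.80 CPM in LC-like cells. It was detected in 0 of the 304974 male T cell-like UMIs, which allows up to 9.84 CPM.

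The keratinocyte UMIs of these genes can be set against those of LC genes in the same cells. In females Cd207 was present in keratinocyte classes at 0.0216% to 0.230% of its LC-like level. The members were at 6.54% (A4galt), 56.8% (Acpp), 59.2% (Ppa1), 5.49% (Plcl1), 82.4% (Gng10), 64.4% (Avil) and 120% (2610035D17Rik) of their LC-like level in female basal keratinocytes. Each of these shares, all of female basal keratinocytes, exceeded the range of Cd207. Other classes and males differed. Plcl1 was at 0.140 CPM in female suprabasal keratinocytes against 53.9 CPM in female LC-like cells. Avil was at 0.0810 CPM in male basal keratinocytes against 4.39 CPM in male LC-like cells.

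Levels differed between the sexes by amounts that varied among the members. In LC-like cells the female mean over the male mean was 1.23 for Gng10, 1.82 for Ppa1, 1.85 for Acpp, 2.83 for Avil and 3.28 for A4galt, but 24.5 for Plcl1 and 38.7 for 2610035D17Rik. In basal keratinocytes the same ratios were 20.3 for Plcl1, 94.2 for Avil and 120 for 2610035D17Rik. They were between 1.10 (Ppa1) and 3.72 (A4galt) for the other 4. The intronic bases number 341678 in Plcl1, 155823 in 2610035D17Rik, 42168 in Acpp, 22775 in A4galt, 22715 in Ppa1, 16888 in Avil and 5502 in Gng10. The part of introns in these ratios was not tested. Whether intronic reads were counted is not given in the sources used here, so these ratios are not read as a difference between males and females.

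**Figure D3:**
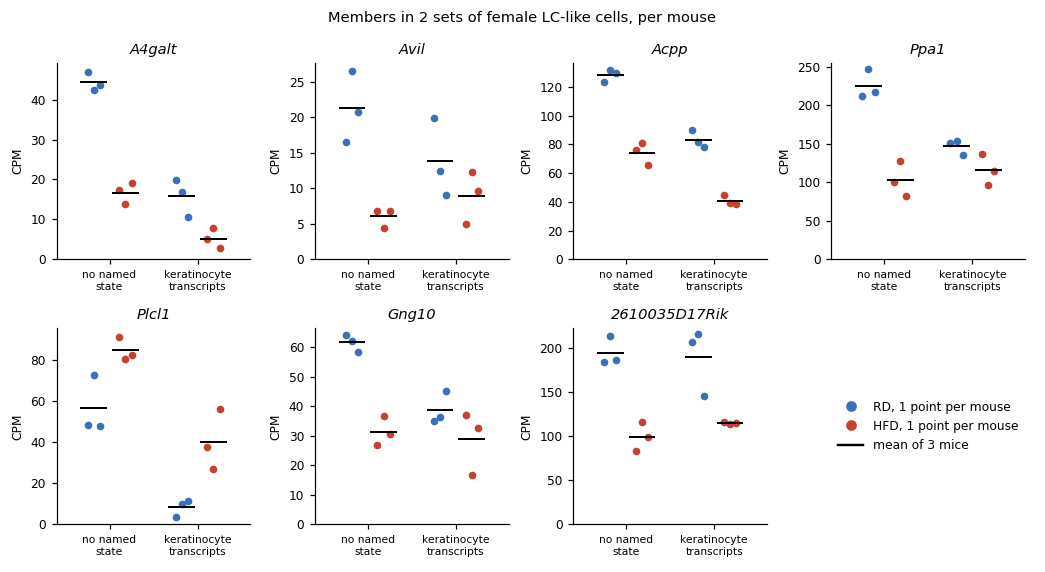
Level of the 7 genes in CPM, with 1 point per mouse, in the remaining cells (no named state) and the keratinocyte-transcript state of female LC-like cells, for RD and HFD. In the remaining cells all 7 genes separate the diets, and in the keratinocyte-transcript state Avil, Ppa1 and Gng10 overlap.

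Within LC-like cells the clustering gave several states. In females 1723 cells belonged to none of the named states, 364 cells carried keratinocyte transcripts, 53 cells were Ccr7-positive (Ccr7 marks LCs on their way to the lymph node) and 35 were proliferating. The 1723 remaining cells were 3 subclusters, of which 1 (455 cells) was led by Ccl4, Hspa1a, Hsph1 and Hspa1b, genes that also led the chemokine-high state of males. In males 681 cells belonged to none of the named states. Of the cells with keratinocyte transcripts, 91.5% were scored as doublets in females and 78.9% of 308 in males. They held 28.8–45.5% of the LC-like UMIs of a female mouse and 29.3–60.6% of those of a male mouse.

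In the remaining female LC-like cells A4galt was at 47.0, 42.3 and 43.8 CPM on RD and at 17.2, 13.9 and 19.1 CPM on HFD. Ppa1 was at 212, 246 and 217 CPM on RD and at 99.9, 127 and 82.4 CPM on HFD. Gng10 was at 64.0, 62.2 and 58.5 CPM on RD and at 26.8, 36.7 and 30.6 CPM on HFD. These 3 genes, like the other 4, kept the diets apart in the remaining cells alone, a subset of the same cells that chose them.

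In the keratinocyte-transcript state Ppa1 was at 151, 154 and 136 CPM on RD and at 136, 96.4 and 115 CPM on HFD, which overlapped. Gng10 was at 34.9, 36.4 and 45.2 CPM on RD and at 36.9, 16.8 and 32.8 CPM on HFD. Plcl1 was at 3.73, 9.77 and 11.3 CPM on RD and at 37.6, 26.9 and 56.0 CPM on HFD, the direction it had in the remaining cells. Levels of A4galt there, 19.9, 16.9 and 10.5 CPM on RD, were below the RD levels of the remaining cells.

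The Ccr7-positive state was too small for a diet comparison, with 4 to 12 cells per female mouse. Over all 53 cells 2610035D17Rik was at 16.2 CPM (95% Poisson interval 5.95–35.3, counting error only). A4galt was at 2.70 CPM there from 1 UMI (0.0684–15.1).

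In the male LC-like cells of no named state Gng10 was at 58.7, 63.9 and 66.3 CPM on RD and at 19.6, 30.6 and 12.4 CPM on HFD. In the male chemokine-high state it was at 42.9, 43.6 and 50.1 CPM on RD and at 32.8, 20.5 and 8.96 CPM on HFD. The diets did not overlap in either set of cells, both of which are parts of the male LC-like sums above. The share of all genes without overlap is not given for these sets. Over all male LC-like cells it was 11.9%. Avil was at 13.3, 12.8 and 15.8 CPM on RD in the male cells of no named state, and HFD mice had 2.79, 0 and 0 CPM, where a count of 0 allows up to 7.05 and 7.46 CPM. In the chemokine-high state Avil was at 8.58, 4.85 and 3.86 CPM on RD and at 0 CPM in each HFD mouse, which allows up to 12.3, 15.3 and 13.4 CPM, so that no difference was detectable at this depth.

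**Figure D4:**
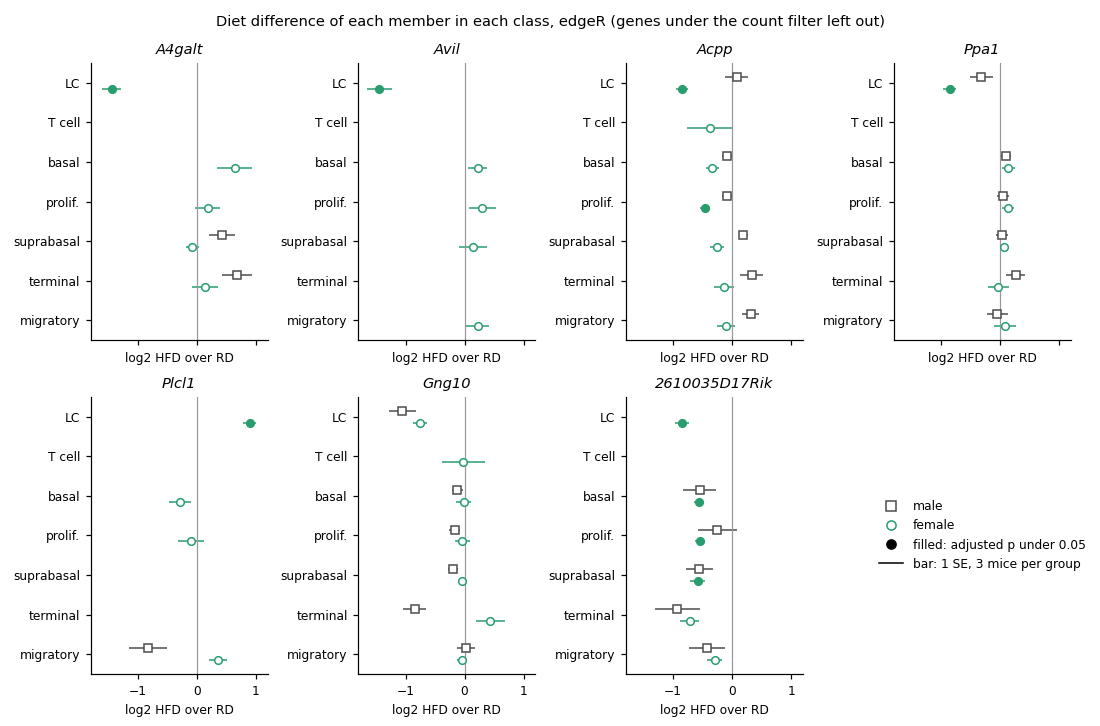
Log2 fold change, HFD over RD, of each gene in each class and sex, with its standard error, and a mark for an adjusted p below 0.05 (edgeR). Outside female LC-like cells the marks fall on 2610035D17Rik in female basal, proliferating and suprabasal keratinocytes and on Acpp in female proliferating keratinocytes.

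The diet comparison in the other classes of females was not itself used in the choice, but it is not independent of the choice. It comes from the same 6 mice. The female LC-like sums also included cells with keratinocyte transcripts, 91.5% of them doublet-scored, which held at least 28.8% of the UMIs in each mouse. Keratinocyte transcripts of these mice were thus part of the choosing values. How far the calls below in female keratinocytes follow from the choice was not tested. Among the members, 2610035D17Rik fell in 3 keratinocyte classes and Acpp in 1. In basal keratinocytes 2610035D17Rik was at 209, 215 and 203 CPM on RD and at 158, 134 and 133 CPM on HFD. All 3 HFD mice lay below the RD mice, and the log2 fold change was −0.57 ± 0.09 (adjusted p = 0.0293, edgeR). In this class 1 of the 7 tested members was called, against 0.876% of the 14274 genes tested, and the diets did not overlap for 2 of the 7 (20.9% of all genes).

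In female proliferating keratinocytes 2610035D17Rik was at 177, 189 and 172 CPM on RD and at 136, 127 and 113 CPM on HFD, a log2 fold change of −0.54 ± 0.08 (adjusted p = 0.0301, edgeR). Here 2 of the 7 tested members were called, against 1.64% of all genes, and the same number did not overlap (23.6% of all genes). In suprabasal keratinocytes it was at 95.1, 124 and 95.2 CPM on RD and at 76.9, 79.8 and 58.7 CPM on HFD, a log2 fold change of −0.59 ± 0.13 (adjusted p = 0.0376, edgeR), and 1 of 6 tested members was called, against 3.62% of all genes, while 2 of 6 did not overlap (26.7% of all genes). In both classes the HFD mice lay below the RD mice without overlap. Leaving out HFD 2 kept these calls, while leaving out any other 1 of the 6 mice ended them, with adjusted p-values of 0.0508 to 0.147 in basal, 0.0529 to 0.105 in proliferating and 0.0513 to 0.116 in suprabasal keratinocytes and fold changes still below 0. Over all genes, the fits without HFD 2 called 481, 577 and 872 genes in these classes, and those without another mouse 0 to 17, 0 to 25 and 7 to 330.

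Terminally differentiated keratinocytes of females had 63.3, 71.8 and 62.2 CPM of 2610035D17Rik on RD and 39.4, 44.6 and 42.8 CPM on HFD. The diets did not overlap, as for 12.6% of all genes tested there, and the log2 fold change of −0.72 ± 0.16 did not pass (adjusted p = 0.355, edgeR). It was the 1 member of 5 tested there without overlap. In this class edgeR called 0 of the 5 tested members and 0.0% of all genes, with 1 member at an unadjusted p below 0.05 (760 of all 9149 genes). DESeq2 called 1 member and 19 of all genes. In migratory keratinocytes the levels of 148, 197 and 152 CPM on RD and 133, 155 and 125 CPM on HFD overlapped. There edgeR called 0 of 6 tested members (0.241% of all genes), with 2 at an unadjusted p below 0.05 (1889 of all 12848 genes) and 0 called by DESeq2 (171 of all genes), and 0 of 6 were without overlap (20.4% of all genes). T cell-like cells had 32.1, 162 and 93.2 CPM on RD and 70.5, 55.2 and 25.3 CPM on HFD, which also overlapped.

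**Figure D5:**
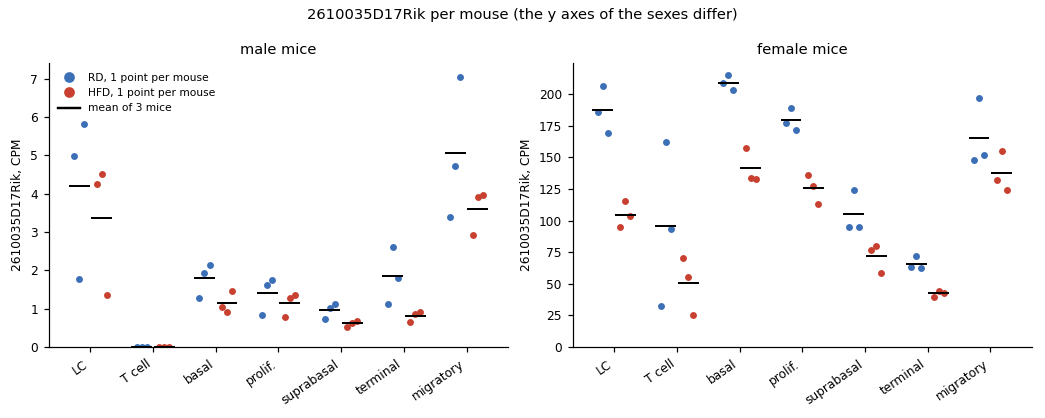
Level of 2610035D17Rik in each cell class, in CPM, with 1 point per mouse and a bar at the mean for RD and HFD. In female LC-like cells and in female basal, proliferating, suprabasal and terminally differentiated keratinocytes every HFD mouse lies below every RD mouse. The axes of the sexes differ, and the highest male mouse is at 7.05 CPM.

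In males 2610035D17Rik was near the lower limit of counting, and its log2 fold changes were −0.55 ± 0.27 in basal, −0.26 ± 0.33 in proliferating, −0.56 ± 0.23 in suprabasal, −0.93 ± 0.38 in terminally differentiated and −0.42 ± 0.30 in migratory keratinocytes. None passed after adjustment over all genes (adjusted p = 0.144 to 0.858, edgeR). The suprabasal diets did not overlap, at 0.716, 1.02 and 1.12 CPM on RD against 0.526, 0.625 and 0.687 CPM on HFD, and neither did the terminally differentiated diets.

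Near 2610035D17Rik the annotation places another noncoding gene, 4732490B19Rik, 1477 bases away on the same strand, and Slc39a11 43015 bases away. In female basal keratinocytes 4732490B19Rik had a log2 fold change of −0.23 ± 0.21 (adjusted p = 0.655, edgeR). Sox9, a transcription factor gene 256135 bases away on the other side, had 0.42 ± 0.21 in the same class (adjusted p = 0.374, edgeR). In female proliferating and suprabasal keratinocytes Sox9 had 0.35 ± 0.12 and 0.57 ± 0.15 (adjusted p = 0.148 and 0.0683, edgeR), opposite in sign to 2610035D17Rik. The sign of Sox9 was that of 2610035D17Rik in the other female classes where both were tested. Sox9 had −0.0092 ± 0.26 in LC-like cells, −0.31 ± 0.35 in terminally differentiated and −0.11 ± 0.10 in migratory keratinocytes. In female proliferating and suprabasal keratinocytes 4732490B19Rik had 0.05 ± 0.24 and −0.06 ± 0.33. Slc39a11 had 0.17 ± 0.07 in basal, −0.05 ± 0.09 in proliferating and −0.01 ± 0.07 in suprabasal keratinocytes. None passed.

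Acpp fell in female proliferating keratinocytes, at 32.1, 31.7 and 33.8 CPM on RD and at 22.8, 27.4 and 21.9 CPM on HFD. The log2 fold change was −0.47 ± 0.08 (adjusted p = 0.0345, edgeR), and the diets did not overlap. Leaving out RD 1, RD 2, RD 3, HFD 1 or HFD 3 ended this call, with adjusted p-values of 0.0922 to 0.139. The other female keratinocyte values of Acpp were −0.34 ± 0.11 in basal (adjusted p = 0.183), −0.26 ± 0.12 in suprabasal (0.224), −0.14 ± 0.17 in terminally differentiated (0.815) and −0.11 ± 0.15 in migratory cells (0.779), each with overlapping diets (edgeR). In the unnamed female cluster it was at 56.1, 45.1 and 51.4 CPM on RD and at 34.2, 40.4 and 33.4 CPM on HFD, without overlap and without a test. The share of all genes without overlap is not given for this cluster, nor are the other members. In the named female keratinocyte classes that share was 12.6% to 26.7%.

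The remaining members did not pass in any keratinocyte class of females. A4galt, which was lower on HFD in LC-like cells, was at 1.29, 0.963 and 1.21 CPM on RD and at 1.43, 1.40 and 2.70 CPM on HFD in basal keratinocytes, with HFD above RD and a log2 fold change of 0.64 ± 0.30 (adjusted p = 0.341, edgeR). In terminally differentiated keratinocytes, the other class where it was high, it was at 19.8, 18.5 and 24.5 CPM on RD and at 27.2, 29.4 and 17.1 CPM on HFD, which overlapped. Its log2 fold change there was 0.14 ± 0.22, with a 95% interval (4 residual degrees of freedom) from −0.47 to 0.76.

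Gng10 in female basal keratinocytes was at 34.5, 34.3 and 35.6 CPM on RD and at 38.4, 27.5 and 38.0 CPM on HFD. The log2 fold change was −0.01 ± 0.13, with a 95% interval from −0.36 to 0.34. Ppa1 in female suprabasal keratinocytes was at 129, 138 and 135 CPM on RD and at 145, 144 and 143 CPM on HFD, which put HFD above RD by 0.07 ± 0.06 on the log2 scale (adjusted p = 0.543, edgeR). Plcl1 in female migratory keratinocytes, its second class, was at 15.9, 14.9 and 20.3 CPM on RD and at 21.7, 26.5 and 18.3 CPM on HFD, a log2 fold change of 0.36 ± 0.16 (adjusted p = 0.327, edgeR) with overlapping diets.

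In T cell-like cells only Acpp and Gng10 could be tested in females, and 0 of these 2 were called by edgeR, against 0.279% of the 2149 genes tested, with 0 at an unadjusted p below 0.05 (190 of all genes) and 0 called by DESeq2 (3 of all genes). Neither was without overlap (12.7% of all genes). None of the 7 members could be tested in male T cell-like cells, where 0.137% of 729 genes were called. Avil was at 96.4, 99.0 and 82.3 CPM in RD females and at 13.4, 46.0 and 67.6 CPM in HFD females, from 9, 11 and 15 UMIs and from 4, 5 and 8 UMIs. The HFD mice lay below the RD mice, as in LC-like cells, from these few UMIs and with no test. In males Avil in T cell-like cells was at 236, 129 and 65.5 CPM on RD and at 119, 178 and 38.4 CPM on HFD, with overlapping diets.

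In male keratinocytes none of the members was called in any class by edgeR, with 0.0% of all genes called in basal, proliferating, terminally differentiated and migratory keratinocytes and 0.0152% in suprabasal ones. At an unadjusted p below 0.05 there were 3 of 5 tested members in suprabasal (1001 of all 13122 genes), 3 of 5 in terminally differentiated (2776 of 9915) and 1 of 5 in migratory keratinocytes (756 of 11030). There were 0 of 4 in both basal (812 of 12179) and proliferating ones (1166 of 12226). DESeq2 called 1 member, Gng10 in terminally differentiated keratinocytes, and none in the other 4 classes, and in that class it called 466 of all 9915 genes. In basal, proliferating, suprabasal and migratory keratinocytes DESeq2 called 16, 64, 52 and 29 genes. The diets did not overlap for 0 of 4 tested members in basal (13.6% of all genes), 1 of 4 in proliferating (14.8%), 3 of 5 in suprabasal (14.2%), 3 of 5 in terminally differentiated (26.7%) and 1 of 5 in migratory keratinocytes (12.8%).

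The values closest to a call in males were in terminally differentiated keratinocytes. Gng10 was at 10.5, 11.4 and 6.71 CPM on RD and at 3.91, 5.76 and 4.14 CPM on HFD, a log2 fold change of −0.85 ± 0.20 (adjusted p = 0.0688, edgeR). A4galt went the other way, with 9.42, 5.51 and 10.4 CPM on RD and 11.1, 12.3 and 12.3 CPM on HFD, a log2 fold change of 0.68 ± 0.26 (adjusted p = 0.128, edgeR). In both genes the diets did not overlap. Without RD 3 both passed, at −0.95 (adjusted p = 0.0258) and 0.93 (adjusted p = 0.0370), in an edgeR fit that called 1418 of 10243 genes, against 0 with all 6 mice.

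In male suprabasal keratinocytes Gng10 was at 28.0, 24.9 and 28.9 CPM on RD and at 23.4, 23.3 and 21.8 CPM on HFD. The diets did not overlap and the log2 fold change was −0.20 ± 0.08 (adjusted p = 0.643, edgeR). This class includes a male cluster of 11972 cells led by Krt9. The female cluster of 14352 cells, which had Krt9 among its leading genes, stayed unnamed and is not in the female suprabasal class, so the suprabasal classes of the sexes differ in make-up.

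The other genes of the members' pathways were followed in 6 lists holding 66 genes besides the members, which cover glycosphingolipid metabolism, gelsolin and villin proteins, acid phosphatases with extracellular adenosine, pyrophosphate handling, phospholipase C, and G protein beta and gamma subunits. In female LC-like cells 46 of them could be tested and 0 were called by edgeR, with 7 at an unadjusted p below 0.05 (1021 of all 10714 genes) and 0 called by DESeq2 (45 of all genes). In male LC-like cells 37 were tested, with 0 called by edgeR, 5 at an unadjusted p below 0.05 (520 of all 8346 genes) and 0 called by DESeq2 (5 of all genes). The median log2 fold change in female LC-like cells was 0.06 over the 12 tested glycosphingolipid genes, 0.35 over the 8 tested acid phosphatase and adenosine genes and −0.12 over the 5 tested gelsolin and villin genes. It was −0.21 over the 4 tested pyrophosphate genes, 0.18 over the 8 tested phospholipase C genes and −0.0018 over the 9 tested G protein subunit genes, against −0.0009 over all genes tested.

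Over the other classes 2 list genes were called by edgeR, both higher on HFD, in classes where 0.876% (female basal) and 3.62% (female suprabasal) of all genes were called. Gng11, another G protein gamma subunit, rose in female basal keratinocytes from 2.87 to 5.37 CPM (means of 3 mice), a log2 fold change of 0.90 ± 0.15 (adjusted p = 0.0382, edgeR). Acp6, an acid phosphatase acting on lysophosphatidic acid, rose in female suprabasal keratinocytes from 6.44 to 9.35 CPM, a log2 fold change of 0.50 ± 0.10 (adjusted p = 0.0281, edgeR). With 1 mouse left out, Gng11 was called without HFD 2 alone and Acp6 without HFD 1 or HFD 2, and the other fits gave adjusted p-values of 0.0617 to 0.179 for Gng11 and 0.0825 to 0.107 for Acp6 (edgeR). DESeq2 called both, and 5 list genes that edgeR did not call, named here after their values were seen. They were Capg in male terminally differentiated, Gng3 in female basal, Plcg2 in female proliferating, and Ank and Nt5e in female migratory keratinocytes, where DESeq2 called 466, 323, 513 and 171 of all genes.

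The genes whose levels most resembled 6 of the members were found by Pearson correlation over 14 values, the 7 classes in each sex, among 11114 genes. The nearest were Gramd3 for A4galt (r = 0.932), D5Ertd579e for Acpp (0.958), Nr3c2 for Plcl1 (0.960), H13 for Gng10 (0.982), Rasl11b for Avil (0.970) and Nr6a1 for 2610035D17Rik (0.983). For 2610035D17Rik the next genes were Ascc3 (0.981) and Xist (0.979), the latter transcribed from the inactive X chromosome of females. The 14 points share libraries, and 7 of them share a sex and a software release, so a likeness can follow that split alone.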

How the data were processed

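The authors deposited UMI counts per gene and cell for 12 libraries, made with Cell Ranger (per the file headers 6.1.0 for males and 7.2.0 for females; the submitters' processing notes name 7.2.0, with Seurat 5.0.0) on the mm10 reference. The 7 members and all gene lists were chosen with earlier results of these data known. The filter asked for 200 genes per cell in males and 500 in females, no more than 6000 genes, and a mitochondrial share up to 5%. The authors' cluster labels were not used here, so cells were clustered within each sex (2000 variable genes, 10 principal components, leidenalg 0.10.2, Python 3.11.15), giving 10 male and 11 female clusters, and were named from markers. Doublet-scored cells (5.89–13.0% per library) were kept, and left out as an alternative. Their number was set in advance, at 0.8% of the kept cells for every 1000 barcodes of the library, and the highest scores were taken. The percentages per library are therefore not measured doublet rates.

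Counts were summed per mouse and class and tested, HFD against RD within each sex, with edgeR 4.0.16 (quasi-likelihood, TMM, filter on low counts, Benjamini-Hochberg over all genes tested, R 4.3.3). The study itself tested over cells. Standard errors are the log2 fold change divided by the square root of F, and 95% intervals use them with 4 residual degrees of freedom. Fold changes are TMM-scaled, and CPM are not. With 3 against 3 mice an exact permutation test of a single gene cannot give a p below 0.1. The genes named were the 7 members, those most alike in level (not reported here for Ppa1), and list genes past the threshold. The fits were tested on counts simulated with known changes. Of the genes called in these, 3.68% to 9.79% per class were unchanged, with 9.57% in female LC-like and 9.79% in female basal cells. Of the 2-fold changes, 63.3% were recovered in male and 75.9% in female LC-like cells. Alternatives were DESeq2 1.42.0, its size factors, no filter, a replicate block, leaving out each mouse, at most 3% mitochondrial UMIs, and other sets of LC-like cells.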

Additional observations from a re-analysis of the deposited data

How the results depend on the processing

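The 66 log2 fold changes of the members were recomputed under 804 alternatives, of which 688 left direction and call as they were, 59 lost a call, 15 gained one and 42 changed sign. Of the 66 values, 39 lay within 2 standard errors of 0, and 21 of these changed sign somewhere, with no size over 0.288 and no adjusted p below 0.298, while 0 of the others did. With doublet-scored cells left out, the changed signs were in male LC-like cells (Acpp, −0.10), in male terminally differentiated keratinocytes (Acpp, −0.040), in female T cell-like cells (Gng10, 0.018, and 0.024 without a filter) and in female terminally differentiated keratinocytes (Acpp 0.015, Ppa1 0.047, Gng10 −0.29). At most 3% mitochondrial UMIs gave 0.017 for Ppa1 in male, −0.028 for Ppa1 in female and 0.0014 for Gng10 in female migratory keratinocytes, and leaving out the keratinocyte-transcript and proliferating subclusters gave −0.16 for Acpp in male LC-like cells.

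With 1 mouse left out, the values whose sign changed ranged in males from −0.080 to 0.21 for Acpp in LC-like cells, and for Ppa1 from −0.039 to 0.11 in proliferating, −0.065 to 0.13 in suprabasal and −0.21 to 0.11 in migratory keratinocytes, with −0.083 to 0.16 for Gng10 in the last. In females they ranged for Gng10 from −0.38 to 0.21 in T cell-like cells, −0.11 to 0.14 in basal, −0.14 to 0.11 in proliferating, −0.087 to 0.013 in suprabasal and −0.11 to 0.025 in migratory keratinocytes. For Acpp they ranged from −0.58 to 0.059 in T cell-like cells and −0.25 to 0.065 in migratory keratinocytes, for Ppa1 from −0.16 to 0.10 in terminally differentiated and −0.11 to 0.31 in migratory, for Plcl1 from −0.34 to 0.021 in proliferating, for Avil from −0.053 to 0.36 in suprabasal, and for A4galt from −0.13 to 0.017 in suprabasal and −0.015 to 0.33 in terminally differentiated keratinocytes.

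The number of members called in female LC-like cells, 6, became 3 with at most 3% mitochondrial UMIs, 7 with DESeq2, without a filter or with doublet-scored cells left out, and 0 to 5 with 1 mouse left out. Over all genes these fits called 3, 45, 280, 73 and 0 to 11 in this order. Leaving out 1 mouse gave 0 to 2 in female basal (from 1) and proliferating (from 2) and 0 to 1 in suprabasal keratinocytes (from 1), where HFD 2 was the 1 mouse whose absence ended no call, and 0 to 2 in male terminally differentiated keratinocytes (from 0, with 2 without RD 3). In male LC-like cells the count of 0 became 2 (Gng10 and Avil) without a filter and 1 (Gng10) without the keratinocyte-transcript and proliferating subclusters, while that of all genes went from 0 to 80 and 11. In terminally differentiated keratinocytes 0 became 1 with DESeq2 and 2 without a filter in males, and 1 with either in females. Over all genes in that class, edgeR's 0 became 466 with DESeq2, 1422 without a filter and 1418 without RD 3 in males, and 19 with DESeq2 and 157 without a filter in females. The causes were not tested.

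With the replicate number as a block, the counts became 0 in female LC-like cells, 0 in basal and 0 in proliferating keratinocytes, 1 in male terminally differentiated keratinocytes, and stayed at 1 in female suprabasal ones, where the block fits called 0, 31, 6, 255 and 108 of all genes in this order. The list genes Gng11 and Acp6 lost their calls under the block (adjusted p = 0.0704 and 0.0684, edgeR) and rose in each of the other fits that kept all 6 mice. Correlations between same-numbered RD and HFD mice, as deviations from their group means, ran from −0.228 to 0.181 in LC-like cells. In male basal keratinocytes they were 0.0377 to 0.0913, and differently numbered mice reached at most 0.0200. In female basal keratinocytes they were −0.123 to 0.0878, and differently numbered mice reached 0.167. With 3 mice per group such values cannot show whether the number stands for anything shared, which was not tested. The number of genes called over all genes moved as well, from 6 to between 0 and 280 in female LC-like cells and from 125 to between 0 and 481 in female basal keratinocytes.

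Of the 98 mean levels (7 genes, 7 classes, 2 sexes), 9 moved by more than the spread over mice with doublet-scored cells left out, 6 with at most 3% mitochondrial UMIs and 0 with mice pooled. Adding the unnamed female cluster to suprabasal keratinocytes, chosen after seeing the data, left 1 member called. That fit called 383 of 15072 genes, against 490 of 13530 without the cluster.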

Other observations

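Several list genes that are not members stood far higher in LC-like cells than in keratinocytes of females, given as values of the summed counts with no test. Scin, an actin-severing relative of Avil, was at 694 CPM in LC-like cells against 21.9 CPM in all keratinocytes. Gm2a, the activator protein for ganglioside breakdown, was at 445 CPM against 16.5 CPM. Gngt2, a G protein gamma subunit, was at 228 CPM against 0.243 CPM, and Plcl2, the close relative of Plcl1, was at 42.6 CPM against 0.323 CPM.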
